A study of Xenopus laevis with 28 samples.

Results

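Wnt ligands, their Frizzled receptors, the Lrp co-receptors and the secreted Wnt antagonists were followed from the egg to the tailbud in the frog *Xenopus laevis*. The set held 72 of the 45831 gene models. A model was a member if its deposited name began with wnt, fzd, sfrp or dkk and a digit, began with frzb, or was lrp5 or lrp6. No measured value was used in that choice. There were 38 ligands, 16 receptors, 3 co-receptors and 15 antagonists. Models named fzd4, fzd7, frzb2 or wif1 were not analysed here, and neither were models spelled outside that pattern, such as Wnt11a.S with a capital letter. *Xenopus laevis* is allotetraploid, so many genes have a copy on the long (L) and on the short (S) subgenome, and 31 pairs of L and S copies lay within the set.

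The series sequenced polyA RNA, without strand information, from minced whole eggs, embryos and oocytes of the J strain. The groups used here were stages 8, 9, 10.5, 12, 15, 20, 25, 30 and 35 of Nieuwkoop and Faber, which run from the blastula (8 and 9) over the gastrula (10.5 and 12) and the neurula (15 and 20) to the tailbud, beside the unfertilized egg. Each was untreated and was sampled in 2 clutches, named Taira and Ueno, each from its own parents, with 1 library per clutch and stage (n = 2). The fit also held the stage 40 library of Taira, so that 21 libraries entered it. Nothing in the labels gives the number of eggs or embryos behind a library, and p-values measure the spread between these libraries.

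Wnt proteins are secreted lipid-modified ligands that bind Frizzled receptors. With an Lrp5 or Lrp6 co-receptor they stabilise beta-catenin, and through other partners they steer cell polarity and movement. In the frog, Wnt signalling has a maternal phase that sets the dorsal side and a zygotic phase that patterns mesoderm and neural tissue along the body axis. Antagonists of the Frzb and Sfrp type bind Wnt ligands outside the cell, whereas Dkk1 binds Lrp6, and several of them are made by the Spemann organizer and the anterior tissues it induces.

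Values are TPM, an RNA abundance scaled for model length and to a fixed total per library, so that gene levels are comparable per length. Where 2 values are given for a stage, the Taira library comes before the Ueno library. Changes are differences of log2(TPM + 1) with the standard error (SE) of a limma fit across all models, which understate the change of members with low TPM. P-values are adjusted by Benjamini and Hochberg over the 28171 models tested. In whole embryos, fewer cells of a type and less RNA per cell cannot be told apart. The depth of each library is unknown, since TPM keeps no read counts.

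Most members were absent or near 0 in the egg and appeared in steps. Of the 72 members, those with at least 1 TPM numbered 7 and 10 (egg), 37 and 32 (stage 12) and 61 and 49 (stage 25). The lowest stage at which both clutches reached 1 TPM was the egg for 7 members, stage 8 for 10, stage 9 for 12, stage 10.5 for 8, stage 12 for 1, stage 15 for 6, stage 20 for 2, stage 25 for 7 and stage 30 for 2. The other 17 never reached it in both clutches at the same stage. Members with at least 1 TPM in at least 2 of the 21 libraries were tested, which left 62 members, namely 30 ligands, 16 receptors, 3 co-receptors and 13 antagonists. The 10 not tested were wnt16.L, wnt16.S, wnt2a.L, wnt2a.S, wnt3b.S, wnt7b.L, wnt7c.L, wnt7c.S, dkk2.L and sfrp4.L, and the highest value among them was 1.67 TPM, of wnt2a.L. An F-test over the stages (limma) called 59 of the 62, where it called 91.6% of all models tested. The exceptions were wnt10b.S, wnt3a.S and wnt7b.S.

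**Figure D1:**
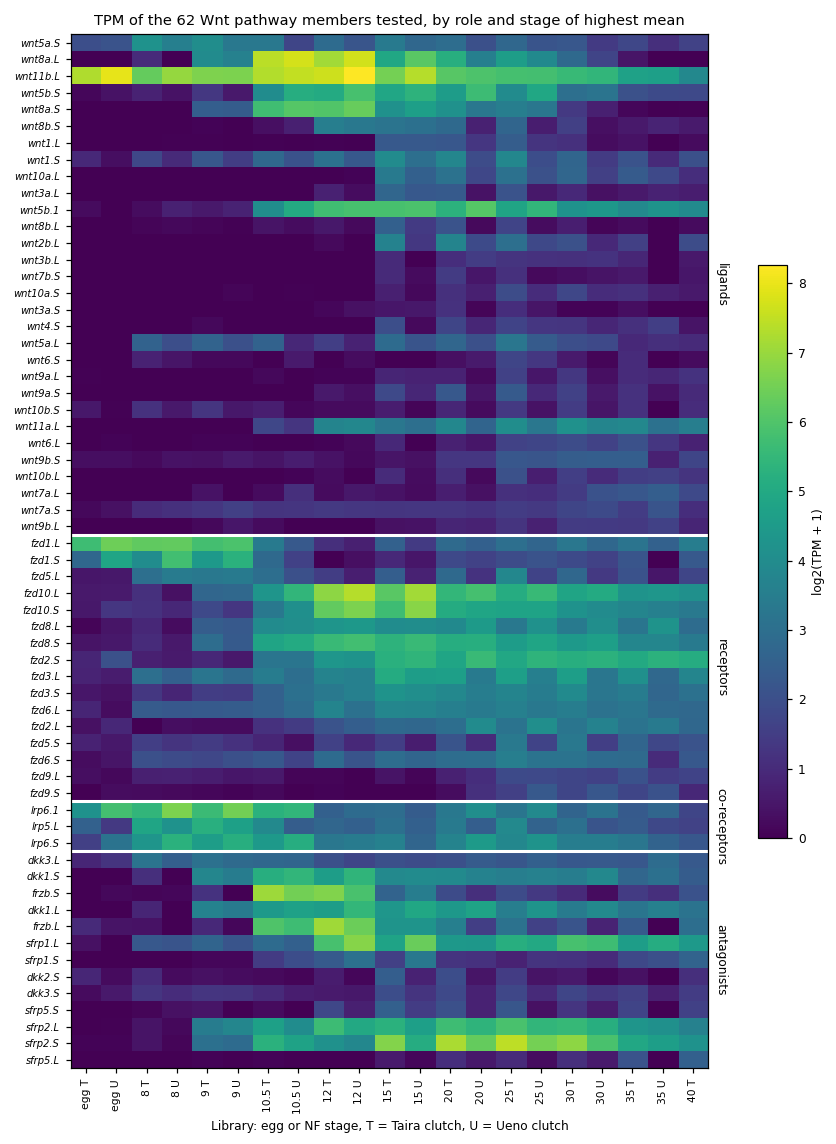
Levels of the 62 members tested as log2(TPM + 1) (colour) in the 21 libraries (columns, egg to stage 40, T for Taira and U for Ueno), with members in rows by role and by the stage of their highest mean. The egg columns are bright for wnt11b.L, fzd1.L, fzd1.S and lrp6.1, and no antagonist exceeds 1.36 TPM in an egg.

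The profiles of 2 libraries bear on what follows. Over all models, Spearman's rho of the library labelled stage 40 Ueno was 0.938 with the Ueno egg and 0.93 with the Taira egg, against 0.703 with stage 40 Taira. Among its members wnt11b.L stood at 245.78 TPM and wnt8a.L, frzb.L and sfrp2.S at 0, 0.24 and 0.04 TPM. It was left out. The stage 35 Ueno library listed 53.6% of all models at 0, against 29.7% in stage 35 Taira, and 25 of the 72 members there, against 2. Without it, 10 of the 20 members called lower at stage 35 against stage 20 were not called, namely dkk1.L, dkk2.S, frzb.L, fzd10.L, fzd10.S, lrp6.1, wnt1.S, wnt2b.L, wnt3b.L and wnt5a.S. Of 11 marker models for tissue formed by the embryo, 1 reached 1 TPM in the library labelled stage 40 Ueno, against 11 in stage 40 Taira. That model was myod1.L, with 253.17 TPM of a summed 254.3 TPM, and it also had 53.5 and 186.37 TPM in the eggs.

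Across the 5 steps tested, called members mainly rose up to stage 12 and mainly fell at stage 35 against stage 20. Members not called numbered 50, 53, 29, 37 and 37 of 62 in these steps. At stage 8 the share of members called higher lay below that of all models. Against the egg, 11 of 62 members were higher at stage 8 and 1 was lower, where 32.8% and 3.71% of all models were called higher and lower. Against stage 8, 9 members were higher at stage 9 and 0 were lower, where the shares of all models were 1.13% and 0.00355%. Against stage 9, 23 members were higher at stage 12 and 10 were lower, beside 13.2% and 35.5% of all models. Against stage 12, 14 members were higher at stage 20 and 11 were lower, beside 18.7% and 18.1% of all models. Against stage 20, 5 members were higher at stage 35 and 20 were lower, beside 13.4% and 20.3% of all models.

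The median change of the 62 members was 0.18 at stage 8 against the egg, 0.08 at stage 9 against stage 8, 0.22 at stage 12 against stage 9, 0.38 at stage 20 against stage 12 and -0.58 at stage 35 against stage 20. The medians of all models were 0.31, 0.02, -0.34, 0 and -0.28 in the same steps. Scaling the libraries by the median of ratios moved the median of all models to 0 at stage 8 against the egg, to 0.05 at stage 12 against stage 9 and to -0.11 at stage 35 against stage 20, so changes in these steps hold relative to those shifts. With that scaling, higher and lower members numbered 6 and 2 at stage 8 against the egg. Of the 10 members lower at stage 12, 5 were called with it. At stage 12, 27 members were higher with it, against 23. Over all models, not the members, the share of higher calls among all calls fell to 39.4%, against 89.8%, at stage 8. That share of all models rose to 54.3%, against 27.1%, at stage 12 and to 49.7%, against 39.7%, at stage 35.

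Leaving out 1 library moved several of these counts. Fewer members were called higher at stage 9 without stage 8 Ueno or stage 9 Taira, 5 in either case. At stage 12, 6 were called lower without stage 9 Ueno. At stage 20, 7 were called higher without stage 12 Taira, and 5 and 7 were called lower without stage 12 Ueno and without stage 20 Ueno. At stage 35, 8 were called lower without stage 20 Taira and 10 without stage 35 Ueno, and 10 without the clutch as a block. There, 1 and 3 were called higher without stage 20 Taira and without stage 20 Ueno.

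**Figure D2:**
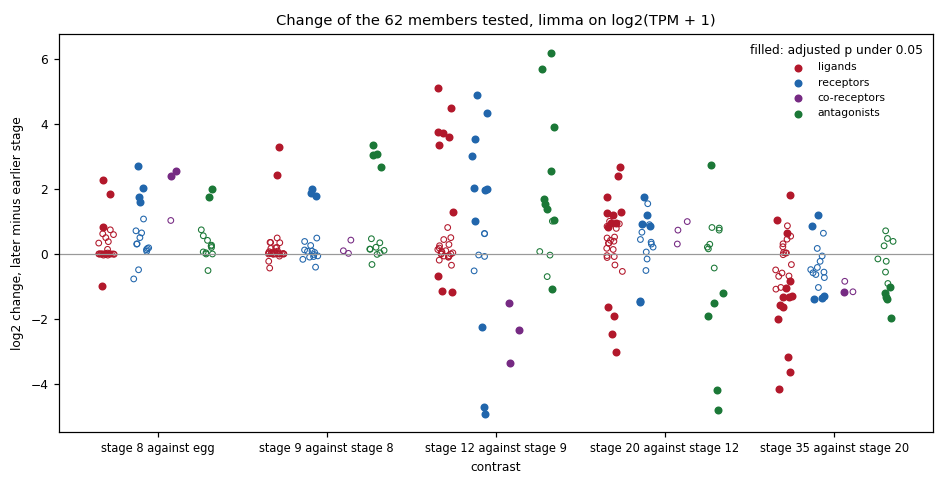
Change of each of the 62 members tested (y axis, later minus earlier stage, difference of log2(TPM + 1)) in the 5 steps (x axis), coloured by role, with filled points called at an adjusted p under 0.05 by limma. Points spread from -4.93 to 6.21 at stage 12 against stage 9 and lie mostly below 0 at stage 35 against stage 20.

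Among the ligands of the set, wnt11b.L made up nearly all of the summed TPM in the polyA RNA of the eggs. Wnt11b is the vegetally localised maternal ligand of the frog egg and also acts in the cell movements of gastrulation. The model wnt11b.L (Xelaev18038627m) had 155.76 and 247.33 TPM in the eggs, then 79.24 and 123.63 TPM (stage 8), 100.98 and 98.57 TPM (stage 9) and 159.12 and 181.04 TPM (stage 10.5). At stage 12 it had 197.64 and 307.59 TPM, its highest mean, and 25.65 and 24.14 TPM remained at stage 35. It thus had 2 high periods, the egg and the gastrula, with a lower blastula between them in both clutches. It accounted for 37.4% and 41.3% of the summed ligand TPM at stage 12 and for 96.7% and 98.1% in the eggs.

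The stage 8 values of wnt11b.L lay below both egg values, with a change of -0.98 ± 0.29 (SE; limma adjusted p = 0.0157). That call was lost without egg Ueno, without stage 8 Taira, without the clutch as a block and with the library labelled stage 40 Ueno added, and the adjusted p reached 0.507 over the alternatives. With median-of-ratios scaling the change was -2.29. It then rose at stage 12 against stage 9 by 1.30 ± 0.29 (limma adjusted p = 0.00188) and fell by 1.92 ± 0.29 at stage 20 against stage 12 (limma adjusted p = 0.000207). Against stage 20, it fell further at stage 35, with a change of -1.34 ± 0.29 (limma adjusted p = 0.00337), a call that was lost without stage 20 Taira.

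Wnt5a, which acts mainly through cell polarity rather than beta-catenin, was the only other ligand with at least 1 TPM in both eggs. The S copy had 17.65 and 11 TPM at stage 8, against 2.99 and 3.38 TPM in the eggs, and rose by 1.84 ± 0.32 (limma adjusted p = 0.000456). All stage 8 values lay above all egg values, but the change was 0.68 and not called with median-of-ratios scaling. At stage 12, wnt5a.S had 6.46 and 3.56 TPM, against 15.61 and 8.87 TPM at stage 9, and fell by 1.13 ± 0.32 (limma adjusted p = 0.00924). That fall was also not called with median-of-ratios scaling, with quantile normalization or without the clutch as a block. The L copy was listed at 0 in both eggs, and had 5.05 and 2.94 TPM at stage 8 (limma adjusted p = 0.00021) and 8.46 and 4.15 TPM at stage 25.

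Next came the zygotic ligands of the gastrula, led by wnt8a, which the ventral and lateral mesoderm of the frog makes and which acts through beta-catenin. The L copy (Xelaev18017109m) had 14.94 and 11.43 TPM at stage 9, against 1.01 and 0 TPM at stage 8, and rose by 3.31 ± 0.54 (limma adjusted p = 0.00508). The clutches did not overlap between the stages. The call was lost without stage 8 Ueno, stage 9 Taira or stage 9 Ueno and with a pseudocount of 5, with adjusted p up to 0.151. At stage 12 wnt8a.L had 139.25 and 207.12 TPM, an increase of 3.60 ± 0.54 over stage 9 (limma adjusted p = 7.72e-05). It had its highest mean of 191 ± 33 TPM (SD, n = 2) at stage 10.5 and was the top ligand there, with 38.5% and 39.6% of the summed ligand TPM. By stage 20 it had 35.75 and 10.79 TPM, a fall of 3.04 ± 0.54 (limma adjusted p = 0.000696), and by stage 35 it had 0.37 and 0 TPM, a further fall of 4.15 ± 0.54 (limma adjusted p = 6.74e-05).

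The S copy of wnt8a was lower than the L copy in both clutches from stage 9 to stage 25 and had its highest mean later, at stage 12. At stage 12 wnt8a.S lay above its stage 10.5 values of 51.86 and 66.91 TPM in both clutches, whereas wnt8a.L lay below its stage 10.5 values of 167.63 and 214.36 TPM. It had 4.56 and 4.32 TPM at stage 9 and was listed at 0 in both stage 8 libraries (limma adjusted p = 0.00106). At stage 12 it had 63.94 and 80.6 TPM, 3.74 ± 0.33 above stage 9 (limma adjusted p = 9.85e-07). At stage 20 it had 17 and 8.73 TPM, which was 2.46 ± 0.33 below stage 12 (limma adjusted p = 7.95e-05), and 0.11 and 0 TPM remained at stage 35.

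Wnt5b and wnt11a, both better known for polarity and movement than for beta-catenin, came up in the gastrula and stayed longer. The model wnt5b.1, whose name carries no L or S, had 52.58 and 57.15 TPM at stage 12, against 0.47 and 0.74 TPM at stage 9, and rose by 5.13 ± 0.30 (limma adjusted p = 4.67e-08). This was the largest rise of a ligand in any step. It was still at 38.7 and 66.49 TPM at stage 20 and fell to 13.88 and 17.95 TPM at stage 35 (-1.62 ± 0.30, limma adjusted p = 0.00115). The copy wnt5b.S rose by 4.50 ± 0.43 to 32.2 and 57.64 TPM at stage 12 (limma adjusted p = 1.87e-06) and fell by 3.17 ± 0.43 to 3.11 and 2.63 TPM at stage 35, relative to stage 20 (limma adjusted p = 9.87e-05). At stage 35 wnt5b.1 lay above wnt5b.S in both clutches. The model wnt11a.L was listed at 0 in all egg, stage 8 and stage 9 libraries. It had 12.18 and 13.23 TPM at stage 12 (limma adjusted p = 8.16e-07) and 17.18 and 12.44 TPM at stage 30, its highest mean.

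**Figure D3:**
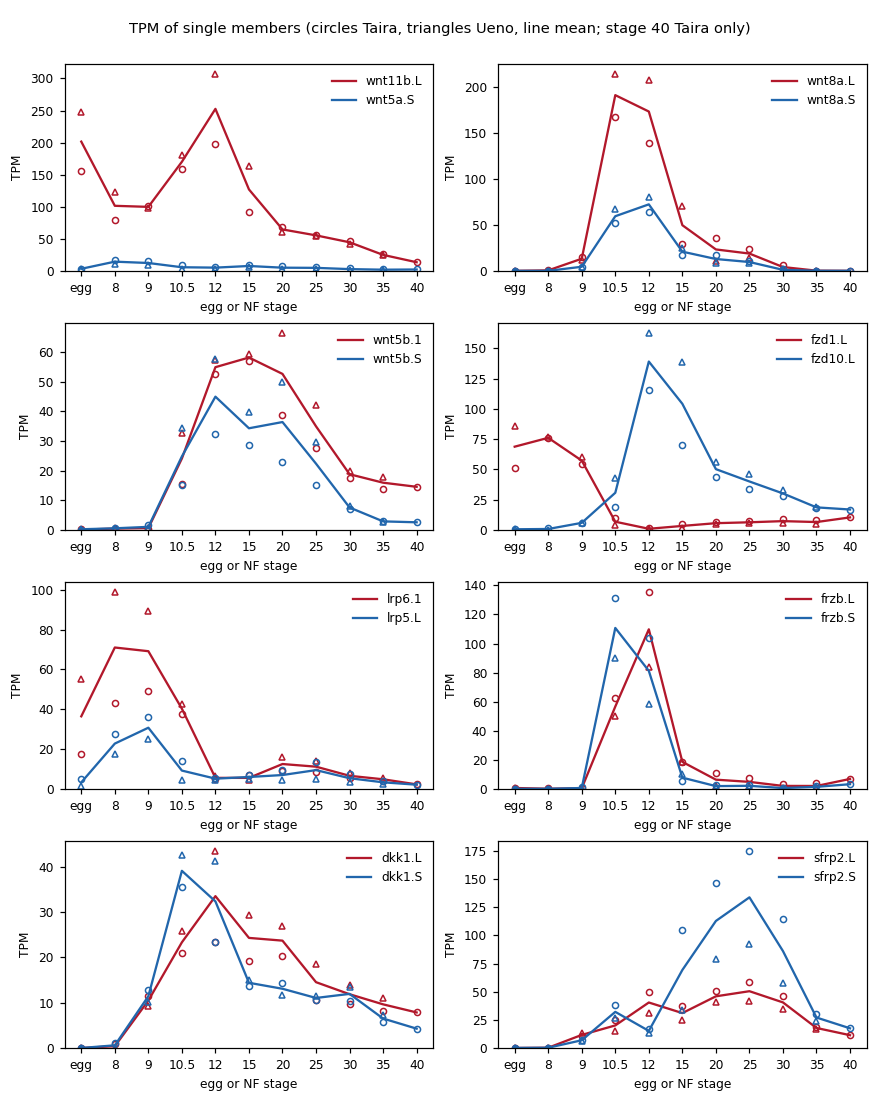
TPM of 16 members in 8 panels (y axis, each with its own scale from 0) against the egg and stages 8 to 40 (x axis); circles are Taira, triangles Ueno and lines the mean of both, with stage 40 from Taira only. The panel of fzd1.L and fzd10.L shows the first at 54.16 and 60.26 TPM and the second at 5.7 and 5.91 TPM at stage 9, and the reverse order at stage 12.

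Other ligands known from the neural tube or brain differed in when they appeared. Wnt1, a ligand of the dorsal neural tube and midbrain, is named after its values were seen. The copy wnt1.S had 3.7 and 1.82 TPM at stage 9 and 7.54 and 3.81 TPM at stage 12, a rise that was not called. Its highest mean was at stage 15, with 14.9 and 7.12 TPM. The L copy of wnt1 had 0.04 and 0 TPM at stage 12 and 3.93 and 4 TPM at stage 15. Wnt3a, a ligand of the dorsal neural tube and tail bud, reached 5.67 and 3.88 TPM for the L copy at stage 15. Its S copy had at most 1.25 TPM in the staged series, and neither copy was called in any step. Wnt8b is a forebrain ligand, and its L copy had 0.45 and 0.15 TPM at stage 12 and 4.86 and 1.66 TPM at stage 15. The copy wnt8b.S had 10.49 and 8.89 TPM at stage 12. At stage 20 it had 6.1 and 0.68 TPM, a fall of 1.63 ± 0.56 (limma adjusted p = 0.0358) that was lost without stage 12 Taira, stage 12 Ueno or stage 20 Ueno. The clutches differed more here than for the ligands of the gastrula at stage 20, although both lay below both stage 12 values.

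Against stage 12, the largest rises of ligands at stage 20 were those of wnt2b.L and wnt10a.L. The model wnt2b.L had 12.21 and 2.6 TPM at stage 20, against 0.15 and 0 TPM at stage 12, and rose by 2.68 ± 0.55 (limma adjusted p = 0.00182). At stage 35 it had 1.99 and 0 TPM and fell by 2.00 ± 0.55 (limma adjusted p = 0.013), a call lost without stage 20 Taira, stage 35 Ueno or the clutch block. The model wnt10a.L had 7.73 and 2.37 TPM at stage 20, against 0 and 0.05 TPM at stage 12, and rose by 2.40 ± 0.38 (limma adjusted p = 0.000306). Taira values were higher in both cases. The other 7 ligands called higher at stage 20 were wnt1.L, wnt3b.L, wnt4.S, wnt5a.L, wnt7b.S, wnt9b.L and wnt10a.S, named after their values were seen, and all were at or under 5.65 TPM there. All but wnt1.L lost the call with a library left out. Without stage 12 Taira these were wnt4.S, wnt5a.L, wnt7b.S, wnt9b.L and wnt10a.S, and without stage 20 Ueno wnt3b.L and wnt5a.L. At stage 25, 31 and 20 of the 38 ligands had at least 1 TPM, the most of any stage in either clutch.

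At stage 35 against stage 20, 3 of the 30 ligands rose, wnt7a.L, wnt6.L and wnt9b.L, and 11 fell, beside 13.4% and 20.3% of all models. The call of wnt6.L was lost without stage 20 Taira, stage 20 Ueno or stage 35 Taira, and that of wnt9b.L without stage 20 Taira, stage 20 Ueno, stage 35 Ueno or the clutch block. The model wnt11a.L was not called, with 13.41 and 7.41 TPM at stage 35 and 13.1 and 5.31 TPM at stage 20. The largest of the rises was that of wnt7a.L, with 3.7 and 4.53 TPM at stage 35, against 0.61 and 0.28 TPM at stage 20. These 3 were named after their values were seen. The median change of the 30 ligands tested was -0.63 in this step, beside -0.28 over all models, and 0.09 at stage 12 against stage 9, beside -0.34.

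Among the receptors of the set, the most abundant changed between the blastula and the late gastrula. The receptor sums hold no fzd4 or fzd7 model, so shares and ranks are those within the set. Fzd1 gave 0.357% and 0.237% of the summed receptor TPM at stage 12 and 90.4% and 92.3% in the eggs. Fzd10, a receptor of the dorsal neural tube and its border, gave 58.9% and 66.5% at stage 12 and 1.49% and 1.62% in the eggs. The 2 copies are added in both shares, and the order of fzd1 and fzd10 was reversed in each clutch.

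The model fzd1.L (Xelaev18030849m) had 51.29 and 86.14 TPM in the eggs, then 75.73 and 76.33 TPM (stage 8) and 54.16 and 60.26 TPM (stage 9). At stage 12 it had 1.17 and 0.67 TPM, a fall of 4.93 ± 0.39 relative to stage 9 (limma adjusted p = 4.37e-07), the largest fall of any member. At stage 20 it had 6.31 and 4.77 TPM and rose by 1.77 ± 0.39 over stage 12 (limma adjusted p = 0.00297). Its S copy had 0 and 0.26 TPM at stage 12, against 21.03 and 38.27 TPM at stage 9 (-4.71 ± 0.76, limma adjusted p = 0.000144). Both copies kept these falls with median-of-ratios scaling, at -4.01 and -3.82.

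The model fzd10.L (Xelaev18007747m) had 5.7 and 5.91 TPM at stage 9, against 1.22 and 0.29 TPM at stage 8, with a change of 2.01 ± 0.37 (limma adjusted p = 0.0124). That call was lost without stage 8 Ueno, stage 9 Taira or stage 9 Ueno, and with 5 of the other alternatives. At stage 12 it had 115.18 and 162.84 TPM, a rise of 4.34 ± 0.37 over stage 9 (limma adjusted p = 7.52e-07). For fzd10.S the values were 77.56 and 98.52 TPM at stage 12, against 2.51 and 1.45 TPM at stage 9, a rise of 4.91 ± 0.38 (limma adjusted p = 3.94e-07). Both copies were far above all earlier values in both clutches. They then fell at stage 20 by 1.44 ± 0.37 and 1.49 ± 0.38 (limma adjusted p = 0.00784 and 0.00747), and both calls were lost without stage 12 Ueno, that of fzd10.S also without stage 20 Ueno. At stage 35 fzd10.L had 18.03 and 19.16 TPM, 1.37 ± 0.37 below stage 20 (limma adjusted p = 0.0117), a call lost without stage 20 Taira or stage 35 Ueno.

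Fzd8, a receptor made in the organizer and the anterior neural plate, also rose in the gastrula. The S copy had 47.96 and 52.96 TPM at stage 12, against 6.79 and 4.12 TPM at stage 9 (3.02 ± 0.28, limma adjusted p = 1.32e-06). The L copy had 18.88 and 20.34 TPM, against 4.45 and 3.96 TPM (1.99 ± 0.36, limma adjusted p = 0.000373). Between stages 8 and 9 fzd8.S had changed by 1.87 ± 0.28 (limma adjusted p = 0.00234), which was lost without stage 8 Ueno or stage 9 Taira, with median-of-ratios scaling and with quantile normalization. At stage 35 fzd8.S had 13.01 and 13.03 TPM, 1.36 ± 0.28 below stage 20 (limma adjusted p = 0.00221), whereas fzd8.L was not called, with 8.24 and 17.97 TPM at stage 35 and 14.12 and 21.62 TPM at stage 20.

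The remaining receptors named here were called at several steps. Fzd5, an eye field receptor, had 7.08 and 9.75 TPM for its L copy at stage 8, against 0.4 and 0.46 TPM in the eggs (2.70 ± 0.55, limma adjusted p = 0.0013), a call lost with quantile normalization. At stage 12 fzd5.L had 1.84 and 0.62 TPM, a fall of 2.24 ± 0.55 (limma adjusted p = 0.00343) that was lost without stage 9 Ueno. Fzd3, a receptor of the neural crest and neural tube, had 7.13 and 4.74 TPM for its L copy at stage 8, against 0.76 and 0.56 TPM in the eggs (2.04 ± 0.36, limma adjusted p = 0.000448), also lost with that normalization. Fzd2 led the receptors of the set at stage 35. Its S copy had 31.23 and 39.02 TPM at stage 35, above every other receptor of the set in both clutches. Both copies rose in the gastrula. The values of fzd2.S were 19.52 and 18.12 TPM at stage 12, against 0.9 and 0.49 TPM at stage 9 (3.56 ± 0.34, limma adjusted p = 1.64e-06). Those of fzd2.L were 3.3 and 4.57 TPM, against 0.19 and 0.19 TPM (2.04 ± 0.30, limma adjusted p = 5.76e-05). Later steps were smaller. At stage 20 fzd2.S had 28.1 and 47.27 TPM, against 19.52 and 18.12 TPM at stage 12 (0.92 ± 0.34, limma adjusted p = 0.0452), a call lost without stage 12 Taira, stage 12 Ueno or stage 20 Ueno and with median-of-ratios scaling. The L copy had 6.87 and 14.98 TPM, against 3.3 and 4.57 TPM (1.2 ± 0.30, limma adjusted p = 0.00635), lost without stage 20 Ueno or the clutch block. Over the 16 receptors, 8 rose and 3 fell at stage 12 against stage 9, beside 13.2% and 35.5% of all models, with a median change of 0.83, beside -0.34.

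The 3 co-receptors were the role in which every member was maternal and every member fell in the gastrula. In that step, stage 12 against stage 9, 35.5% of all models and 53.7% of all maternal models fell as well. The model lrp6.1 (Xelaev18002521m), whose name carries no L or S, had 4.75 and 6.37 TPM at stage 12, against 48.98 and 89.32 TPM at stage 9. It fell by 3.37 ± 0.40 (limma adjusted p = 9.41e-06). The model lrp5.L had 5.59 and 4.74 TPM at stage 12, against 36.24 and 25.23 TPM at stage 9, and fell by 2.35 ± 0.32 (limma adjusted p = 3e-05). The model lrp6.S had 8.71 and 9.97 TPM, against 23.19 and 35.17 TPM, and fell by 1.52 ± 0.48 (limma adjusted p = 0.0165). For each of the 3, both stage 12 values lay below both stage 9 values. How many of all models did so was not counted. The fall of lrp6.S was lost without stage 9 Ueno, stage 12 Taira or stage 12 Ueno and with median-of-ratios scaling, where it was -0.58.

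Before that, 2 of the 3 had risen at stage 8 against the egg, where 32.8% of all models were called higher. The model lrp5.L had 27.78 and 17.76 TPM at stage 8, against 4.99 and 1.61 TPM in the eggs (2.55 ± 0.32, limma adjusted p = 3.75e-05). It remained called with median-of-ratios scaling, at 1.42. The model lrp6.S had 18.66 and 37.77 TPM, against 1.99 and 7.95 TPM (2.42 ± 0.48, limma adjusted p = 0.00111), which was not called with that scaling, at 1.19. The model lrp6.1 had 42.94 and 99.07 TPM at stage 8 and 17.66 and 55.25 TPM in the eggs, and was not called (1.03 ± 0.40, limma adjusted p = 0.0554). Its clutches overlapped between the stages, with Ueno above Taira in each. Summed co-receptor TPM was 19.05 and 21.08 at stage 12 and 89.38 and 154.6 at stage 8.

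No antagonist had at least 1 TPM in both eggs. Summed antagonist TPM was 3.23 and 2.61 (egg), 17.42 and 9.88 (stage 8), 59.22 and 50.46 (stage 9), 328.99 and 264.44 (stage 10.5) and 421.16 and 391.03 (stage 12). At stage 9 against stage 8, 4 of the 13 antagonists tested were called higher, among 9 of the 62 members, beside 1.13% of all models. They were both copies of dkk1 and of sfrp2, and only sfrp2.L kept the call with quantile normalization. At stage 12 against stage 9, 8 of the 13 antagonists tested rose and 1 fell, beside 13.2% and 35.5% of all models, with a median change of 1.38, beside -0.34 over all models.

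Both copies of dkk1, the head inducer that binds Lrp6, first reached 1 TPM in both clutches at stage 9. The L copy (Xelaev18034450m) was listed at 0 in both eggs. It had 11.58 and 9.38 TPM at stage 9, against 0.79 and 0 TPM at stage 8, and rose by 3.09 ± 0.36 (limma adjusted p = 0.000428). For dkk1.S the values were 12.79 and 10.08 TPM, against 1.18 and 0 TPM (3.07 ± 0.36, limma adjusted p = 0.000434). The copies were close to each other at stages 9 and 12, with stage 12 values of 23.52 and 43.55 TPM for dkk1.L and 23.49 and 41.26 TPM for dkk1.S. At stage 10.5 dkk1.L had 20.92 and 25.76 TPM and dkk1.S 35.64 and 42.62 TPM, so that the S copy was higher in both clutches. Both rises at stage 9 were lost with quantile normalization, that of dkk1.L also with the library labelled stage 40 Ueno added. Dkk3, a divergent relative, showed another course: dkk3.L had 8.03 and 4.61 TPM at stage 8, against 0.85 and 1.36 TPM in the eggs (1.77 ± 0.31, limma adjusted p = 0.000494), a change of 0.77 that was not called with median-of-ratios scaling. At stage 12 dkk3.L was the antagonist that fell, to 3.09 and 2.35 TPM, against 7.49 and 6.32 TPM at stage 9 (-1.09 ± 0.31, limma adjusted p = 0.00989), which was lost with that scaling and without stage 9 Taira or stage 12 Ueno.

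Frzb, a Wnt-binding product of the organizer, gave the largest rise of any member. The L copy (Xelaev18044787m) had 135.61 and 83.95 TPM at stage 12, against 0.92 and 0.1 TPM at stage 9, and rose by 6.21 ± 0.49 (limma adjusted p = 4.87e-07). Levels of frzb.S were 103.71 and 58.71 TPM, against 1.3 and 0 TPM, and they rose by 5.70 ± 0.40 (limma adjusted p = 2.03e-07). Taira lay above Ueno for both copies at stage 12, and both clutches lay far above stage 9. At stage 10.5 frzb.L already had 62.83 and 50.49 TPM. The S copy had 131.51 and 89.94 TPM there, its highest mean and above its stage 12 values in both clutches. The peak was brief. At stage 20 frzb.L had 10.86 and 1.91 TPM, a fall of 4.20 ± 0.49 relative to stage 12 (limma adjusted p = 2.62e-05). The S copy had 2.73 and 1.15 TPM, a fall of 4.80 ± 0.40 (limma adjusted p = 1.51e-06). A further fall of frzb.L at stage 35, to 4.09 and 0 TPM (-1.38 ± 0.49, limma adjusted p = 0.0451), was lost without stage 20 Taira, without stage 35 Ueno and without the clutch block.

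Of the Sfrp family, secreted proteins with a Frizzled-like domain, both sfrp2 copies rose before frzb, and sfrp2.S rose again while frzb fell. Sfrp2, found in the anterior neural plate and eye, had 10.22 and 13.03 TPM for the L copy at stage 9, against 0.34 and 0.13 TPM at stage 8 (3.35 ± 0.28, limma adjusted p = 3.63e-05). The S copy had 7.34 and 6.41 TPM, against 0.36 and 0.09 TPM (2.69 ± 0.35, limma adjusted p = 0.000692), a call lost with quantile normalization and with a pseudocount of 5. It then became the most abundant antagonist. It had 146.95 and 78.88 TPM at stage 20, against 17.16 and 13.25 TPM at stage 12, and rose by 2.76 ± 0.35 (limma adjusted p = 4.5e-05). Its highest values, 175.27 and 92.54 TPM, were at stage 25, and it fell by 1.96 ± 0.35 to 30.13 and 24.02 TPM at stage 35, relative to stage 20 (limma adjusted p = 0.000796). Taira lay above Ueno at each of these stages. The L copy was not called at stage 20 against stage 12, with 50.92 and 40.95 TPM beside 49.91 and 30.96 TPM.

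Sfrp1 peaked in the late gastrula and returned in the tailbud. The L copy (Xelaev18018658m) had 56.87 and 108.24 TPM at stage 12, against 5.34 and 3.45 TPM at stage 9, and rose by 3.90 ± 0.44 (limma adjusted p = 6.78e-06). At stage 20 it had 20.35 and 19.72 TPM and fell by 1.92 ± 0.44 (limma adjusted p = 0.004), and the S copy fell by 1.51 ± 0.39 to 1.35 and 1.24 TPM (limma adjusted p = 0.00795). Both falls were lost without stage 12 Ueno, that of sfrp1.S also without stage 20 Ueno. At stage 30 sfrp1.L had 57.76 and 51.54 TPM, so that both clutches were above their stage 20 values again, a step that was not tested.

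Within the set, ligands outweighed antagonists in the egg and antagonists outweighed ligands in the later tailbud. Summed ligand TPM was 161.1 and 252.03 (egg), 528.76 and 744.16 (stage 12) and 97.22 and 77.37 (stage 35). The log2 ratio of summed ligand to summed antagonist TPM averaged 6.12 in the egg, 3.26 at stage 8, 1.38 at stage 9, 0.72 at stage 10.5, 0.63 at stage 12 and 0.61 at stage 15. It was 0.13 at stage 20, -0.24 at stage 25, -0.69 at stage 30 and -0.28 at stage 35. The ratio was above 0 in both clutches up to stage 15, on both sides of 0 at stage 20 (-0.01 and 0.27), and below 0 in both clutches from stage 25. It is a ratio of sums within a library and was not tested. Its sign holds for the set alone, since extracellular modulators outside the set are not in the antagonist sum. One of these, cer1.S, had 266.25 and 199.76 TPM at stage 10.5 and 651.26 and 563.15 TPM at stage 12.

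The ratio turned on 1 member of each role. Without wnt11b.L and sfrp2.S, the most abundant ligand and antagonist over the 21 libraries, the mean log2 ratio was 0.82 in the egg, 0.92 at stage 8, -0.19 at stage 9, 0.26 at stage 10.5 and -0.04 at stage 12. It was 0.62 at stage 20, 0.35 at stage 25 and -0.57 at stage 30 without them. The sign of the mean was therefore reversed at stages 9, 12 and 25. At stage 12 that mean was only -0.04 and the clutches disagreed, with antagonists ahead in Taira and ligands ahead in Ueno. Median-of-ratios scaling does not change a ratio within a library.

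**Figure D4:**
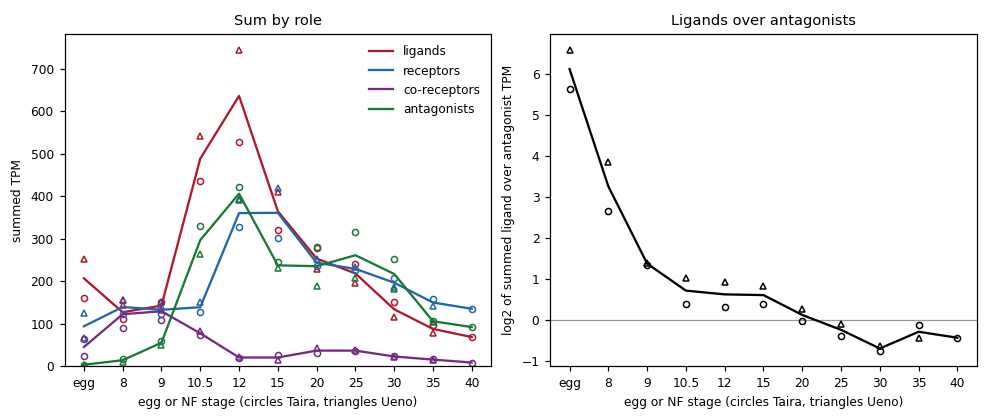
Left, summed TPM of ligands, receptors, co-receptors and antagonists (y axis) in the egg and stages 8 to 40 (x axis); right, the log2 ratio of summed ligand to antagonist TPM. Circles are Taira, triangles Ueno and lines the mean of both; at stage 40 only Taira is shown. Ligands peak at stage 12 with 528.76 and 744.16 TPM, and the ratio lies below 0 in both clutches from stage 25.

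Maternal and zygotic members were set side by side. A member was classed as maternal if it had at least 1 TPM in both eggs, which held for 7, namely wnt11b.L, wnt5a.S, fzd1.L, fzd1.S, lrp5.L, lrp6.1 and lrp6.S. It was zygotic if it was below 1 TPM in both eggs and reached 1 TPM in both clutches at any stage from 9 to 35, which held for 45, namely 23 ligands, 12 receptors and 10 antagonists. The other 20 fell in neither class. Oocytes were not used for the classes. Of the zygotic members, sfrp1.L had 3.21, 8.3 and 7.68 TPM in oocytes 1-2, 3-4 and 5-6, and fzd6.L had 3.06, 3.55 and 5.48 TPM. In polyA RNA a low egg value need not mean absent RNA, nor a rise at stage 8 new RNA, which was not tested. Just inside the maternal limit were lrp5.L, at 4.99 and 1.61 TPM in the eggs, lrp6.S, at 1.99 and 7.95 TPM, and wnt5a.S, at 2.99 and 3.38 TPM. Just outside were fzd2.S, at 0.79 and 3.1 TPM, fzd10.S, at 0.46 and 1.48 TPM, dkk3.L, at 0.85 and 1.36 TPM, and frzb.L, at 0.97 and 0.35 TPM. With limits of 0.5 and 2 TPM, 10 and 5 members were maternal.

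At stage 12 against stage 9, 6 of the 7 maternal members fell and 1, wnt11b.L, rose. Of these falls, those of lrp6.S and wnt5a.S were not called with median-of-ratios scaling or with quantile normalization. The shares of models that follow are without scaling. Of all 14593 maternal models, 53.7% fell and 8.15% rose. Among the 45 zygotic members, 20 rose and 2 fell, where 27% of the 8189 zygotic models rose and 9.84% fell. A fall was thus the commonest call among maternal models at large as well as among the members. The median change was -2.35 over the maternal members and 0.63 over the zygotic members, beside -1.06 and 0.16 over all maternal and all zygotic models. With median-of-ratios scaling these medians were -1.41, 1.29, -0.18 and 0.34.

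At stage 9 against stage 8, 9 of 45 zygotic members rose, where 3.33% of zygotic models did, and 0 of 7 maternal members were called, where 0.164% of maternal models rose. At stage 20 against stage 12, 1 maternal member rose (fzd1.L) and 1 fell (wnt11b.L), beside 14% and 25.7% of maternal models. In that step 11 zygotic members rose and 9 fell, beside 32.7% and 10.9% of zygotic models. At stage 35 against stage 20, 0 maternal members rose and 3 fell, beside 9.79% and 23.9% of maternal models, and 5 zygotic members rose and 15 fell, beside 22.7% and 21.3%. Without stage 35 Ueno, lrp6.1 and wnt5a.S were not called, which leaves wnt11b.L of the 3 maternal falls. The classes use the eggs, so the step from the egg to stage 8 was not compared. The zygotic class also uses levels at stages 9 to 35, which favours rises among its members in the steps compared, so its counts are a description and are set only beside those of all zygotic models, chosen in the same way.

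Most L and S copies of the same gene differed in level, in the set as among all genes. Of the 31 pairs, 26 had a summed TPM of at least 2 in at least 2 libraries and were tested in the same kind of limma fit. Over the 20 libraries of both clutches up to stage 35, the L copy was higher in 14 pairs and the S copy in 11, where 51.2% and 35.5% of 6651 pairs of all genes were called. The pair not called was wnt10b. The median difference was 0.14 over the member pairs and 0.19 over all pairs. How reads shared by near-identical copies were divided between L and S is set by the authors' quantification, so each copy's level carries that uncertainty.

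The largest difference was that of sfrp1, where the L copy averaged 28.8 TPM and the S copy 1.99 TPM (2.74 ± 0.07, limma adjusted p = 1.57e-14). The L copy was also higher for fzd1 (1.22 ± 0.12), dkk3 (1.17 ± 0.10) and wnt8a (0.88 ± 0.08). For fzd1 and dkk3 that held in 20 of 20 libraries. The S copy was higher in 20 of 20 libraries for fzd2, with 5.37 TPM for L and 21.5 TPM for S (-1.53 ± 0.06, limma adjusted p = 6.25e-12), and for wnt1, with 1.04 TPM for L and 4.8 TPM for S (-1.49 ± 0.05, limma adjusted p = 2.09e-13).

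The difference between copies varied among the stages in 20 of the 26 pairs, where 86.5% of all pairs were called. On the log2(TPM + 1) scale a constant ratio also varies where both copies are low. In other pairs the order of the copies changed. For sfrp2 (limma adjusted p = 1.95e-05), the L copy had 50.92 and 40.95 TPM and the S copy 146.95 and 78.88 TPM at stage 20, whereas at stage 12 the L copy had 49.91 and 30.96 TPM and the S copy 17.16 and 13.25 TPM. For fzd5 (limma adjusted p = 1.65e-05), the L copy had 5.81 and 1.59 TPM and the S copy 8.95 and 1.89 TPM at stage 30, whereas at stage 9 the L copy had 8.85 and 9.46 TPM and the S copy 1.7 and 1.27 TPM. Both reversals held in both clutches. The pairs wnt10a, wnt5a, sfrp1 and wnt1 were also among the 6 with the smallest adjusted p. For wnt10a the L copy had 5.67 and 1.97 TPM and the S copy 2.36 and 1.06 TPM at stage 30, and at stage 15 the L copy had 9.62 and 4.85 TPM and the S copy 0.64 and 0.13 TPM.

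**Figure D5:**
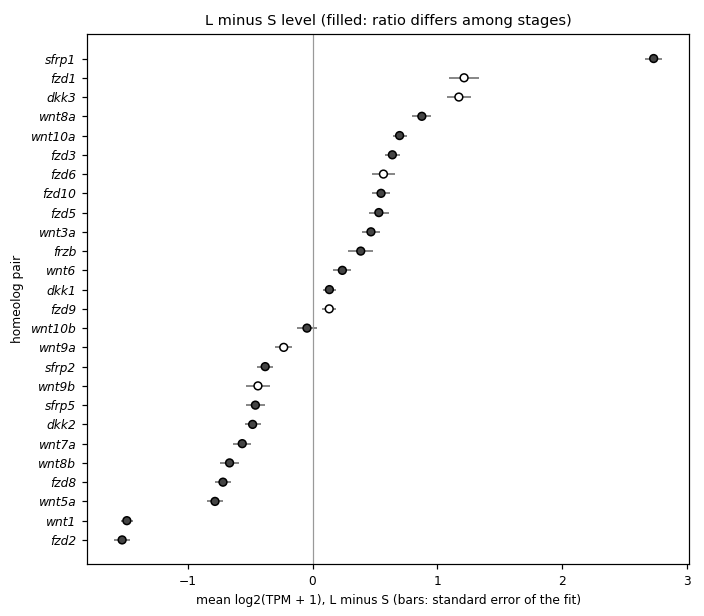
Mean difference between the L and the S copy (x axis, L minus S, log2(TPM + 1), with the SE of the limma fit) of the 26 homeolog pairs tested (rows), over 20 libraries. Filled points are pairs whose difference varied among stages; sfrp1 lies farthest on the L side at 2.74 and fzd2 farthest on the S side at -1.53.

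Some Wnt genes are neighbours in the genome. In the gene order of RefSeq's Xenopus_laevis_v10.1 annotation, in which 52 of the 72 members have a matching symbol, 5 pairs of members were adjacent among protein-coding genes. They were wnt1.L with wnt10b.L, wnt9a.L with wnt3a.L, wnt9a.S with wnt3a.S, wnt10a.L with wnt6.L, and wnt10a.S with wnt6.S. Both S pairs had the highest mean of their 2 genes at stage 25, whereas in the 3 L pairs the genes peaked at different stages. For wnt3a.S that mean was only 0.755 TPM, and neither clutch was highest there. Taira had 1.25 TPM at stage 20, against 1.12 TPM at stage 25, and Ueno 0.46 TPM at stage 15, against 0.39 TPM. In the wnt10a.L and wnt6.L pair, wnt10a.L had 4.24 and 2.57 TPM at stage 35, where wnt6.L had 3.19 and 1.49 TPM, and 9.62 and 4.85 TPM at stage 15, where wnt6.L had 0.95 and 0 TPM. Apart from wnt10a.L and wnt3a.L, these genes stayed under 5 TPM at every stage up to 35.

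Outside the set, the extracellular modulators of the pathway were also called in both directions in the gastrula. Of 31 tested models for Wnt secretion, co-receptors of other kinds and modulators, 13 rose and 6 fell at stage 12 against stage 9, beside 13.2% and 35.5% of all models, with a median change of 0.63, beside -0.34. Among those that rose was cer1.S, the head inducer Cerberus, with 651.26 and 563.15 TPM at stage 12, against 2.16 and 0.81 TPM at stage 9 (7.99 ± 0.45, limma adjusted p = 3.21e-08). Ror2, a polarity co-receptor for Wnt5a, rose by 6.61 ± 0.57 for its L copy (limma adjusted p = 7.71e-07), and kremen2.S, a partner of Dkk1 at Lrp6, by 4.46 ± 0.41 (limma adjusted p = 1.31e-06). Among those that fell was lgr4.L, a receptor for R-spondins, with a change of -3.43 ± 0.32 (limma adjusted p = 1.59e-06). At stage 20 against stage 12, 3 of the 31 rose and 12 fell, beside 18.7% and 18.1% of all models, and cer1.S had 3.66 and 0.73 TPM.

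Of 33 tested models for the cytoplasmic machinery, 5 rose and 16 fell at stage 12 against stage 9, with a median change of -0.71. The rises were near the 13.2% of all models. The falls lay above the 35.5% of all models and below the 53.7% of all maternal models. The models that fell included both copies of axin1, the scaffold of the beta-catenin destruction complex, with a change of -2.39 ± 0.28 for axin1.L (limma adjusted p = 9.91e-06). The feedback scaffold axin2 went the other way, with 63.45 and 72.71 TPM for axin2.L at stage 12, against 0.03 and 0.2 TPM at stage 9 (5.95 ± 0.45, limma adjusted p = 3.3e-07). Of 35 tested models for nuclear factors and known target genes, 21 rose and 11 fell in the same step, beside the same shares of all models, with a median change of 3.74. The axin2 and nkd1 models stand in both lists. The targets sp5.L, a zinc finger factor, and cdx4.L, a posterior homeobox factor, rose by 5.44 ± 0.37 and 6.84 ± 0.72 (limma adjusted p = 1.62e-07 and 3.68e-06). Both nkd1 copies were lower at stage 12. The S copy had 3.24 and 1.68 TPM there, against 41.95 and 25.94 TPM at stage 9, and the L copy 13.78 and 4.25 TPM, against 31.85 and 16.27 TPM.

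Most calls among these factors and targets were falls after the gastrula. At stage 20 against stage 12, 2 of the 35 nuclear factors and targets rose and 19 fell, beside 18.7% and 18.1% of all models, with a median change of -1.17. Against stage 20, 2 rose and 21 fell at stage 35, beside 13.4% and 20.3% of all models, with a median change of -1.32. The model sp5.L had 7.65 and 6.42 TPM at stage 20, against 101.3 and 105.9 TPM at stage 12 (-3.71 ± 0.37, limma adjusted p = 7.03e-06). The 3 lists were chosen with earlier results of these data known, and the models named from them were picked after their values were seen.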

How the data were processed

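The deposited table gives TPM for each gene model in 28 libraries, and nothing was rescaled before the steps below. The tools were BWA 0.7.10 and RSEM 1.2.19, per the submitters' processing notes. The deposited values are labelled as bwa mem and rsem on the cDNA set JGIv18pV2, and settings are not given in the sources used here. No read counts or depths were available to set intervals, and columns sum to about 1e+06. The build of these models differs from that of the annotation at hand, so no coordinates or sequences are printed.

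Using limma 3.58.1 (R 4.3.3), stage and clutch effects on log2(TPM + 1) were estimated together, clutch being the block, for the 28171 models that reached 1 TPM in at least 2 of 21 libraries. The residual degrees of freedom were 9, and the variance prior followed the mean level. Two-sided p-values were adjusted over all models separately for every contrast (Benjamini and Hochberg) and called at 0.05. Pairs of L and S copies were fitted likewise on the difference of their logs, with clutch as block. The method was run on data simulated with independent normal noise of the fitted spread. Such data cannot show how it behaves under shifts in composition or with libraries that list many models at 0.

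Samples were paired by clutch label: the differences between clutches at 2 stages correlated across models with a median r of 0.416 (0.17 to 0.879), and 45 of 45 stage pairs were over 0.1. In the titles each clutch of the fit has its own name and date, so clutch cannot be told apart from a batch.

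Members named were the up to 10 largest rises and falls per contrast among those called with a mean of at least 5 TPM in the higher stage and the same direction in both clutches. To these were added the 4 highest per role in the egg and at any stage, 6 homeolog pairs by difference and 6 by ratio, and a list of textbook genes. Members and lists were chosen with earlier results of these data known.

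Alternatives were pseudocounts of 0.1 and 5, no filter, a filter at 5 TPM, median-of-ratios scaling, quantile normalization, no block, no trend, the second Ueno series or the library labelled stage 40 Ueno added, and each library of the compared stages left out. The oocyte libraries and the second Ueno series entered no comparison.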

Additional observations from a re-analysis of the deposited data

Results flagged for a closer look

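Values outside the comparisons were set beside the matching stage, and those of at least 5 TPM and over 2 times the higher matching library are given here; neither the oocytes nor the second Ueno series has replicates, and nothing was tested. In the second Ueno series, stage 10 had 51.65 TPM of dkk1.L, against 20.92 and 25.76 TPM at stage 10.5, and 39.15 TPM of fzd10.S, against 8.89 and 16.22 TPM. The labels give these as different stages.

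The oocytes held 2 antagonists that were low in the egg. The model dkk3.L had 20.7 TPM in oocytes 1-2, 12.96 TPM in oocytes 3-4 and 9.23 TPM in oocytes 5-6, against 0.85 and 1.36 TPM in the eggs. The model sfrp1.L had 8.3 and 7.68 TPM in oocytes 3-4 and 5-6, against 0.29 and 0 TPM in the eggs. In oocytes 5-6, lrp5.L had 11.21 TPM, against 4.99 and 1.61 TPM in the eggs, and fzd6.L had 5.48 TPM, against 0.82 and 0.22 TPM. Markers of follicle cells and ovary stroma (15 models) summed to 9.15, 66.49 and 31.74 TPM in oocytes 1-2, 3-4 and 5-6, with 4, 9 and 8 at or over 1 TPM and 2 at 0 in each, against 8.36 and 7.15 TPM in the eggs, with 1 and 3 at or over 1 TPM and 8 at 0. Their part in these values was not tested.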

How the results depend on the processing

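Of the 68 results for single members or pairs, none was reversed under the alternatives run (1012 values); 915 values kept the call and 97 lost it, in 32 results. Adding the library labelled stage 40 Ueno ended the most calls, 20. Counts of members moved as follows. At stage 8 against the egg, 11 were higher, with 6 under median-of-ratios scaling, 4 under quantile normalization and 9 to 12 with a library left out; 1 was lower, with 3, 2 and 3 under a pseudocount of 0.1, that scaling and quantile normalization, 0 without the replicate block, 0 with stage 40 Ueno added, and 0 to 2 with a library left out. At stage 9, 9 were higher, with 3 under a pseudocount of 5, 3 under quantile normalization, 4 with stage 40 Ueno added and 5 to 9 with a library left out. At stage 12, 10 were lower, with 5 under median-of-ratios scaling, 6 under quantile normalization and 6 to 7 with a library left out. At stage 20, 14 were higher, with 7 under a filter of 5 TPM, 9 with stage 40 Ueno added and 7 to 15 with a library left out; 11 were lower, with 4 and 5 to 11. At stage 35, 5 were higher, with 2 under a pseudocount of 0.1, 0 under the filter of 5 TPM, 9 under median-of-ratios scaling, 3 with stage 40 Ueno added and 1 to 6 with a library left out; 20 were lower, with 10 without the replicate block, 7 with stage 40 Ueno added and 8 to 22 with a library left out. The filter of 5 TPM left 38 of the 59 members that differed among stages, since fewer members were tested. The log2 ligand to antagonist ratio without wnt11b.L and sfrp2.S was 0.817 in the egg, 0.923 at stage 8, -0.193 at stage 9, 0.263 at stage 10.5, -0.0392 at stage 12, 0.623 at stage 20, 0.35 at stage 25 and -0.572 at stage 30. Elsewhere the cause was not tested. Without the block, 8 of the 68 calls were lost. Counts of homeolog pairs and the sizes of the maternal and zygotic classes moved by less than 1.5 times. That does not cover calls within the classes: the falls of lrp6.S and wnt5a.S at stage 12 were lost under median-of-ratios scaling. TPM keeps no depth, so differences between members near 0 cannot be weighed against counting error, and n is 2 per stage.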

Other observations

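The 3 oocyte libraries, sampled from Ueno without replicates, held all 7 maternal members at 0.49 TPM or more. The ligand wnt11b.L had 150.72, 70.52 and 123.81 TPM in oocytes 1-2, 3-4 and 5-6, against 155.76 and 247.33 TPM in the eggs. The receptor fzd1.L had 8.34, 11.32 and 7.47 TPM in the oocytes, against 51.29 and 86.14 TPM in the eggs. The co-receptor lrp6.1 had 0.93, 0.93 and 2.32 TPM, against 17.66 and 55.25 TPM in the eggs, and wnt5a.S had 0.49, 0.94 and 0.8 TPM, against 2.99 and 3.38 TPM. These 4 members were lower in each oocyte library than in either egg, wnt11b.L in oocytes 1-2 by little against the Taira egg, and so was fzd1.S, with 1.71, 1.38 and 4.66 TPM in the oocytes and 5.75 and 28.38 TPM in the eggs. The other two were not: lrp5.L had 0.98, 2.21 and 11.21 TPM, against 4.99 and 1.61 TPM in the eggs, and lrp6.S had 1.29, 1.08 and 4.02 TPM, against 1.99 and 7.95 TPM.

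At stage 35, the second Ueno series listed 3 of the 72 members at 0, against 25 in the Ueno library of the staged series and 2 in that of Taira. The member frzb.L, listed at 0 in the staged Ueno library, had 0.81 TPM in the second series, and wnt2b.L, also listed at 0, had 1.09 TPM. At stage 40, which has the Taira library alone, fzd2.S was the most abundant receptor of the set with 33.9 TPM, and wnt5b.1 the most abundant ligand with 14.53 TPM.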
